A study of Homo sapiens with 6 samples.

Results

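The transcription factor ATF4, 3 of the kinases that raise its translation and 29 genes commonly listed as its targets or partners were followed through a CRISPR/Cas9 experiment in the human cell line HEK293, which came from embryonic kidney. The 33 genes were chosen by name as members of the pathway, and all 33 were found among the 57773 genes of the count table. Of these, 30 passed the filter on low counts and were tested, and NUPR1, FGF21 and GDF15 did not. All cells received the Cas9 plasmid PX459 by transient transfection. The plasmid carried no guide in the empty vector control (EV), 4 guides against the zinc finger gene ZNF146 (sgZNF146) or 4 guides against the zinc finger gene ZNF507 (sgZNF507). All groups were then selected with puromycin for 36 h and grown out to 2 weeks. Each group had 2 libraries, numbered 1 and 2, described by the labels as biological duplicates. The cells were pools of transfected cells and not clones, so each library averages over the cells of a pool. In such bulk RNA, fewer cells expressing a gene and less RNA per cell cannot be told apart. Beyond the transfection and puromycin selection that all groups received, no agent meant to trigger the stress response is described. Whether those steps affected these genes was not tested. The cells all carry the background of this 1 line.

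The integrated stress response begins with kinases that phosphorylate the translation factor eIF2alpha. This lowers protein synthesis in general and favours translation of a few messages with upstream reading frames, ATF4 among them. ATF4 pairs with C/EBP proteins on DNA and switches on genes for amino acid uptake and synthesis, for tRNA charging and, under lasting stress, for growth arrest and cell death. Because ATF4 is controlled largely at translation, the RNA level of its targets is usually a more direct readout of the pathway than the RNA level of ATF4.

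The ATF4 pathway is known for a composite DNA element, the C/EBP-ATF response element, with the core TGATGNAA. This core was searched on both strands in RefSeq promoter windows (from 250 bases before to 50 bases after the start, table built on GRCh38.p14). A window was held for 25 of the 33 genes, and 8 of them had the core in a window, namely ASNS, ATF3, CEBPG, CHAC1, FGF21, JDP2, SLC3A2 and SLC7A1. Some genes have several windows, so the comparison is by window: 8 of 37 windows of these genes (21.6%) had the core, against 3.62% of all 35116 windows. The 4 sequences shown belong to the genes whose level was higher in replicate 2 than in replicate 1 in all 3 groups, as described further on. Each is written 5′ to 3′ on the gene's strand, and capitals mark the core or its reverse complement.
ASNS: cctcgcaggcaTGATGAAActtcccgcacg
ATF3: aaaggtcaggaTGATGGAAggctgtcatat
CHAC1: ctcccctgccgTTGCATCActcctgccagg
SLC7A1: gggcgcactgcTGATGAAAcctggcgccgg
On GRCh37, placed by exact match, the ASNS stretch lies at chr7:97501770-97501799 on the minus strand, with the core starting 68 bases before the RefSeq start. The ATF3 stretch lies at chr1:212738547-212738576 on the plus strand, with the core starting 191 bases before the RefSeq start. The CHAC1 stretch lies at chr15:41245449-41245478 on the plus strand with the core on the opposite strand, 209 bases before the RefSeq start. The SLC7A1 stretch lies at chr13:30169800-30169829 on the minus strand with the core starting 7 bases after the RefSeq start. A match of letters is a description and does not show binding.

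The libraries held 22724439 to 28524025 counts. ZNF507 RNA stood at 47.2 and 48.7 CPM (counts divided by the library's TMM-adjusted size) in sgZNF507 and at 72.0 and 75.5 CPM in EV, a log2 fold change of -0.62 (edgeR quasi-likelihood test, Benjamini-Hochberg adjusted p = 0.00195). ZNF146 RNA stood at 99.2 and 103 CPM in sgZNF146 and at 115 and 105 CPM in EV, a log2 fold change of -0.13 (95% interval -0.29 to 0.041, edgeR adjusted p = 1), so the RNA level does not check that label. In sgZNF507 ZNF146 RNA stood at 88.4 and 101 CPM, a log2 fold change against EV of -0.21 (edgeR adjusted p = 1). Of the markers of the line, VIM, KRT8, KRT18, CDH2, NEFM and PAX2 were present and PAX8 was at 0 to 3 counts. Among markers of other cells, HBB and KRT5 were at 0 counts in all 6 libraries and PTPRC, CD3E and ALB at 6 counts or fewer, while the collagen gene COL1A1 was at 58.9 to 73.0 CPM and the fibroblast proteoglycan gene DCN at 20 to 34 counts (0.76 to 1.34 CPM). The share of counts from mitochondrial genes was 2.33% to 2.39% in sgZNF507 and 2.57% to 3.11% in the other libraries.

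Per transcript length, the levels of the genes in EV spread widely. The level was expressed as RPKM, CPM per kilobase of merged exons, and ordered over genes. ATF4 was the highest, at 97.9 ± 3.8 RPKM (SD, n = 2), followed by the amino acid transporter SLC7A5 at 57.8 ± 0.78 RPKM and the proline enzyme PYCR1 at 47.2 ± 1.4 RPKM. These 3 levels were apart by more than their spread. The folate enzyme SHMT2 came next at 35.5 RPKM, and the arginine transporter SLC7A1 and SLC3A2, the partner chain of SLC7A5, followed at 29.1 ± 2.5 and 28.8 ± 2.2 RPKM, which do not differ beyond their spread. At the low end stood the folate dehydrogenase ALDH1L2 at 0.465 RPKM and the lipoprotein receptor VLDLR at 0.417 RPKM, again not apart beyond the spread of VLDLR. The median over the 30 tested genes was 10.6 RPKM, beside 4.49 RPKM over 14744 tested protein-coding genes, and 8 of the 30 lay below that value (DDIT3, CTH, SLC7A11, CHAC1, JDP2, EIF2AK3, ALDH1L2 and VLDLR). The order depends on the length used. With the length of the canonical transcript, ATF4 stayed first, but PHGDH, an enzyme of serine synthesis, came to rank 2 at 110 RPKM beside 22.3 RPKM by merged exons and SLC3A2 to rank 3 at 97.7 RPKM. SLC7A5 and PYCR1 then stood at ranks 5 and 6, and the lowest was ALDH1L2. The rank correlation of the 2 orders was 0.949 across genes, which are not independent replicates.

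**Figure D1:**
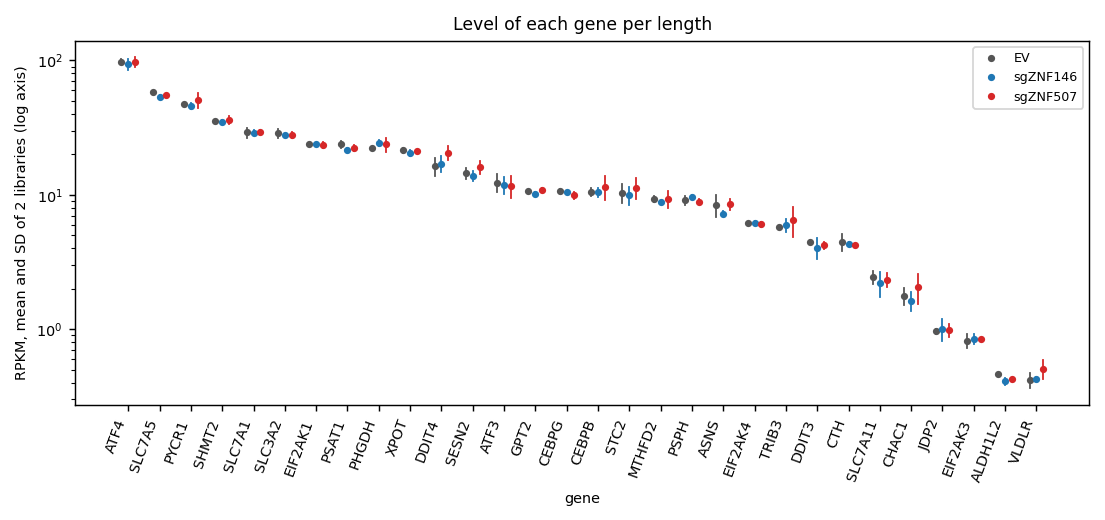
Level of the 30 tested genes in RPKM (log axis), with points for the mean of 2 libraries and lines for the SD in EV, sgZNF146 and sgZNF507. The levels run from ATF4, at 97.9 RPKM in EV, to VLDLR, at 0.417 RPKM.

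The first question the design poses is whether disruption of either zinc finger gene moved these genes away from EV. In sgZNF507, no gene of the 30 passed the threshold: 0 of 30 were called by edgeR, beside 0.182% of all genes tested. At an unadjusted p under 0.05 there was 1 of 30 (3.33%), beside 3.39% of all genes, and DESeq2 called 0 (0.223% of all genes), with 1 at an unadjusted p under 0.05 (1.28% of all genes). Their log2 fold changes ran from -0.13 to 0.34 with a median of -0.00057, beside -0.0032 over all genes tested. In sgZNF146, edgeR again called 0 of 30, beside 0% of all genes, with 0 of 30 at an unadjusted p under 0.05 beside 2.43% of all genes, and DESeq2 called 0 (0% of all genes), with 0 at an unadjusted p under 0.05 (0.691% of all genes). The log2 fold changes ran from -0.22 to 0.13 with a median of -0.046, beside -0.0013 over all genes. Of the 30, 22 were negative, a count given without a share over all genes. The low median lay mostly in 1 library. The median log2 deviation of these genes from their means over the 6 libraries was -0.082 in sgZNF146 replicate 2 and -0.0058 in sgZNF146 replicate 1. Without sgZNF146 replicate 2 the median log2 fold change was -0.0045. Both comparisons share the EV libraries. Because EV carried no guide, loss of the target and cutting by Cas9 cannot be told apart in either comparison. Between the disruptions, edgeR called 0 of 30 (0.173% of all genes) and DESeq2 0 (0.254% of all genes), with 1 at an unadjusted p under 0.05 by each tool, beside 4.03% of all genes in edgeR and 1.61% in DESeq2. The genes whose 2 libraries did not overlap between groups were 4 of 30 in sgZNF507 against EV (13.3%, beside 29.3% of all genes), 5 in sgZNF146 against EV (16.7%, beside 28.6%) and 6 between the disruptions (20%, beside 32.1%).

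**Figure D2:**
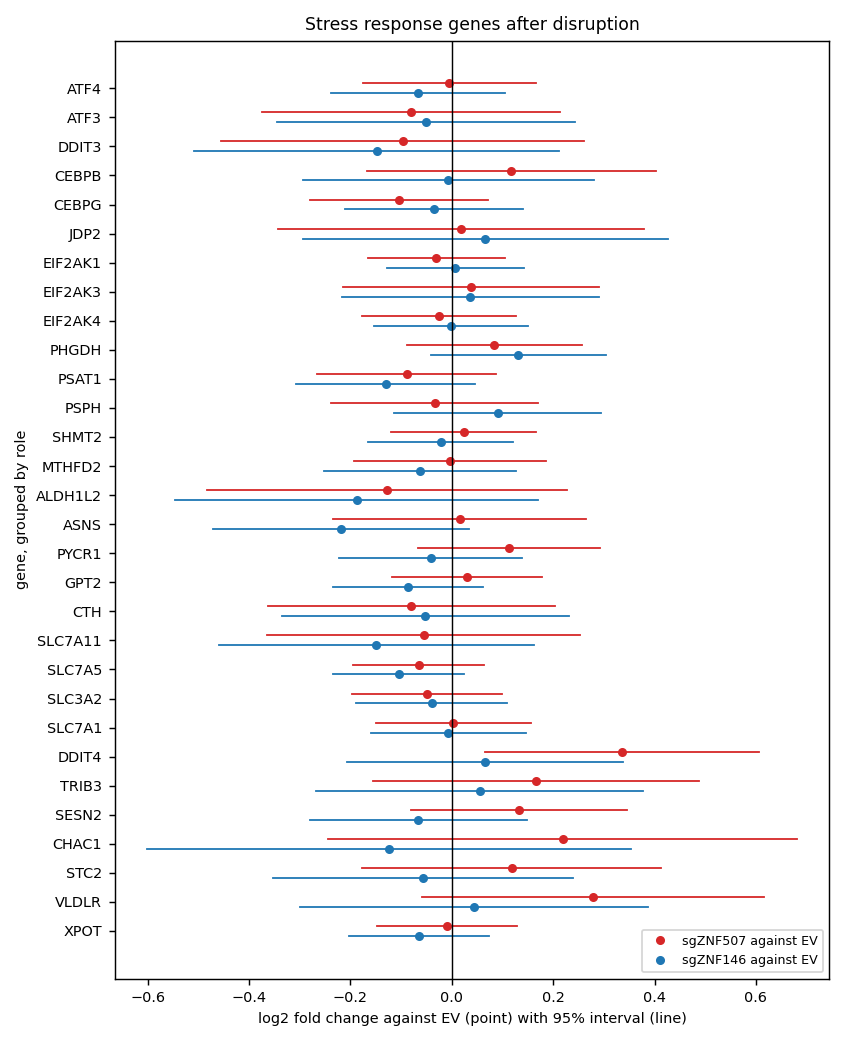
Log2 fold change against EV of the 30 tested genes, grouped by role, with points for the estimate and lines for the 95% interval from edgeR, in sgZNF507 and in sgZNF146. The intervals all cross 0 except that of DDIT4 in sgZNF507, 0.065 to 0.61.

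The kinases stand first in the pathway. EIF2AK1, the kinase that senses heme deficiency and mitochondrial stress, measured 133 and 129 CPM in EV, 132 and 132 CPM in sgZNF146 and 133 and 124 CPM in sgZNF507. Its 6 values lay close together and the groups overlapped. EIF2AK3, or PERK, the kinase of the endoplasmic reticulum, measured 15.5 and 18.6 CPM in EV, 16.4 and 18.6 CPM in sgZNF146 and 17.6 and 17.4 CPM in sgZNF507. The lowest value was EV replicate 1 and the groups again overlapped. EIF2AK4, or GCN2, the kinase that senses uncharged tRNA, measured 75.2 and 72.6 CPM in EV, 75.9 and 71.7 CPM in sgZNF146 and 74.8 and 70.5 CPM in sgZNF507. Its log2 fold change against EV was -0.025 in sgZNF507 (95% interval -0.18 to 0.13) and -0.0015 in sgZNF146 (95% interval -0.15 to 0.15). Per length, EIF2AK1 stood highest of the 3 in EV at 23.9 ± 0.44 RPKM, then EIF2AK4 at 6.16 ± 0.16 RPKM and EIF2AK3 at 0.823 ± 0.10 RPKM, each apart from the next by more than its spread. With the length of the canonical transcript the order was the same, at 29.7, 13.3 and 3.75 RPKM, so the gaps depend on the length used.

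Among the transcription factors, ATF4 measured 263 and 249 CPM in EV, 261 and 227 CPM in sgZNF146 and 270 and 240 CPM in sgZNF507. In each group the second library was the lower, and the groups overlapped. The log2 fold change was -0.0049 in sgZNF507 (95% interval -0.18 to 0.17) and -0.066 in sgZNF146 (95% interval -0.24 to 0.10). Its 3 listed pseudogene copies reached at most 0.431% of its level. ATF3, a stress-induced factor downstream of ATF4, measured 43.9 and 54.6 CPM in EV, 42.8 and 52.5 CPM in sgZNF146 and 40.4 and 52.6 CPM in sgZNF507. Here the second library was the higher in every group. DDIT3, or CHOP, which promotes cell death under lasting stress, measured 5.7 and 6 CPM in EV, 4.61 and 5.96 CPM in sgZNF146 and 5.73 and 5.25 CPM in sgZNF507. The lowest value was sgZNF146 replicate 1, and the other 5 libraries lay together. Its gene overlaps MARS1 on the opposite strand, and whether the counting used strand is not stated in the sources used here. The same limit holds for other genes of the set with overlaps on the opposite strand, among them EIF2AK1, SHMT2, MTHFD2 and ALDH1L2. PYCR1 overlaps MYADML2 on the same strand. CEBPB and CEBPG, C/EBP partners of ATF4, ranged over 18.1 to 24.0 and 38.5 to 44.2 CPM, and JDP2, a repressor of the AP-1 family, over 5.48 to 7.13 CPM. NUPR1, a stress-induced chromatin protein, had 1 to 9 counts per library and was not tested.

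ATF4 targets supply the cell with amino acids and one-carbon units. Of the 6 serine, glycine and one-carbon enzymes, none was called against EV. PHGDH and PSAT1, which open serine synthesis, ranged over 198 to 237 and 46.5 to 54.8 CPM. PSPH, the last enzyme of serine synthesis, ranged over 23.8 to 27.2 CPM. SHMT2 and MTHFD2, which carry one-carbon metabolism in mitochondria, ranged over 157 to 175 and 95.2 to 117 CPM. ALDH1L2, a mitochondrial folate dehydrogenase, measured 4.42 and 4.41 CPM in EV, 4.06 and 3.7 CPM in sgZNF146 and 4.08 and 4 CPM in sgZNF507. Both disrupted groups lay below EV without overlap, with log2 fold changes of -0.13 (95% interval -0.48 to 0.23) and -0.19 (95% interval -0.55 to 0.17) that did not pass the test.

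ASNS, which makes asparagine and is a standard reporter of the pathway, measured 35.8 and 46.4 CPM in EV, 34.3 and 36.5 CPM in sgZNF146 and 38.7 and 44.4 CPM in sgZNF507. The highest value was EV replicate 2, and both sgZNF146 libraries lay below both sgZNF507 libraries. The log2 fold change of ASNS was -0.22 in sgZNF146 against EV (95% interval -0.47 to 0.034), and 0.015 in sgZNF507 against EV (95% interval -0.23 to 0.27). PYCR1, which makes proline in mitochondria, measured 139 and 133 CPM in EV, 138 and 127 CPM in sgZNF146 and 161 and 134 CPM in sgZNF507. The highest value was sgZNF507 replicate 1, and the other 5 libraries lay between 127 and 139 CPM. GPT2, a mitochondrial alanine transaminase, ranged over 62.6 to 70.5 CPM, and CTH, which makes cysteine from cystathionine, over 9.73 to 11.9 CPM.

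Of the 4 amino acid transporters, none was called against EV. SLC7A11, the cystine importer, measured 21.5 and 25.4 CPM in EV, 24.4 and 18 CPM in sgZNF146 and 20.6 and 24.5 CPM in sgZNF507. The lowest value was sgZNF146 replicate 2, and the replicates of each group differed by more than the groups did. SLC7A5, the carrier of large neutral amino acids, ranged over 251 to 278 CPM and lay below EV in both disrupted groups without overlap, with log2 fold changes of -0.066 in sgZNF507 (95% interval -0.19 to 0.063) and -0.10 in sgZNF146 (95% interval -0.23 to 0.024). Its pseudogene SLC7A5P1 reached 3.39% of its level. SLC3A2 and SLC7A1 ranged over 171 to 194 and 210 to 237 CPM.

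DDIT4, or REDD1, a stress-induced inhibitor of mTORC1, measured 37.2 and 30 CPM in EV, 38.6 and 31.7 CPM in sgZNF146 and 46 and 38.9 CPM in sgZNF507. Both sgZNF507 libraries lay above both EV libraries and both sgZNF146 libraries, and in each group the second library was the lower. Against EV the log2 fold change in sgZNF507 was 0.34 (SE 0.12, 95% interval 0.065 to 0.61, edgeR adjusted p = 1), which did not pass the test. In a fit that blocks on the replicate number, the estimate was 0.34 (SE 0.070, 95% interval 0.20 to 0.48) and passed it (edgeR adjusted p = 0.00406), the 1 gene of 30 called in that fit beside 0.55% of all genes. Against sgZNF146 the blocked estimate was 0.27 (edgeR adjusted p = 0.0397), again 1 of 30, beside 0.891% of all genes. In sgZNF146 against EV the blocked fit called 0 of 30, beside 0.15% of all genes, with 2 at an unadjusted p under 0.05 (6.67%) beside 5.44% of all genes. In the blocked fits of sgZNF507, 4 of 30 (13.3%) had an unadjusted p under 0.05 against EV, beside 7.66% of all genes, and 5 of 30 (16.7%) against sgZNF146, beside 8.68%. DESeq2 with the same block did not call DDIT4 (adjusted p = 0.208 against EV and 0.65 against sgZNF146, with 0.277% and 0.345% of all genes called), nor any of the 30 in sgZNF146 against EV (0.00909% of all genes). Its counts at an unadjusted p under 0.05 were 1 of 30 in sgZNF507 against EV (1.68% of all genes), 0 of 30 in sgZNF146 against EV (1% of all genes) and 5 of 30 (16.7%) between the disruptions (2.24% of all genes). In the blocked edgeR fit, leaving out EV replicate 2 ended the call against EV (log2 fold change 0.31, adjusted p = 0.111), and leaving out either library of sgZNF146 or of sgZNF507 ended the call against sgZNF146 (adjusted p = 0.738, 0.39, 0.0922 and 0.109) while the log2 fold change of DDIT4 stayed at 0.28, 0.27, 0.30 and 0.26.

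The other effectors and feedback genes were not called against EV. SESN2, which links amino acid shortage to mTORC1, measured 53.7 and 47.1 CPM in EV, 50.8 and 45.3 CPM in sgZNF146 and 59.5 and 51 CPM in sgZNF507. The highest value was sgZNF507 replicate 1. TRIB3, a pseudokinase that dampens the response, measured 18.6 and 19.2 CPM in EV, 21.1 and 18.1 CPM in sgZNF146 and 25.1 and 17.5 CPM in sgZNF507. Both replicates of sgZNF507 enclosed all other values, so the groups overlapped fully. CHAC1, which degrades glutathione and is among the genes induced most strongly by ATF4 under stress, measured 3.25 and 4.02 CPM in EV, 2.96 and 3.74 CPM in sgZNF146 and 3.47 and 4.94 CPM in sgZNF507. The highest value was sgZNF507 replicate 2 and the lowest sgZNF146 replicate 1. The log2 fold change of CHAC1 against EV was 0.22 in sgZNF507 (95% interval -0.24 to 0.68) and -0.12 in sgZNF146 (95% interval -0.60 to 0.35), the widest intervals of the set.

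STC2, a secreted glycoprotein induced by stress of the endoplasmic reticulum, measured 58.4 and 46.6 CPM in EV, 56 and 45 CPM in sgZNF146 and 64.3 and 49.8 CPM in sgZNF507. The first library was the higher in every group and the groups overlapped. VLDLR, a lipoprotein receptor, measured 7.51 and 6.26 CPM in EV, 7.21 and 6.96 CPM in sgZNF146 and 9.33 and 7.42 CPM in sgZNF507. The highest value was sgZNF507 replicate 1. The stress hormones FGF21 and GDF15 were near 0: FGF21 had 1 count in sgZNF507 replicate 1 and 0 in the other 5 libraries, where 0 counts allow up to 0.104 to 0.121 CPM (3 counts per library, counting error only), and GDF15 had 4 to 10 counts per library. XPOT, the exporter of tRNA from the nucleus, ranged over 144 to 161 CPM.

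**Figure D3:**
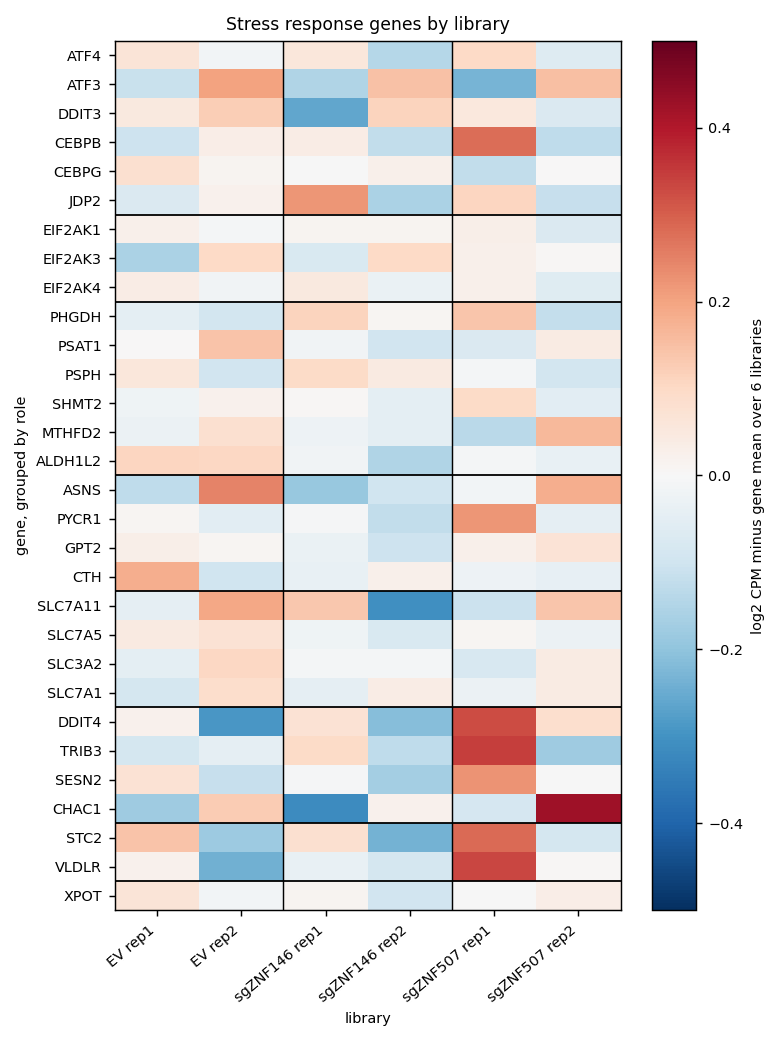
Log2 CPM of the 30 tested genes (rows, grouped by role) in the 6 libraries (columns), as the difference from each gene's mean over the libraries. Blue marks values below the mean and red values above it, and for STC2 and DDIT4 the first library of each group is above the second.

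Within each group the 2 libraries differed in a way that recurred across groups. Replicate number 2 was compared with number 1 in a model with group and number as terms. The number names a library in the labels, and what else the libraries of 1 number share cannot be told apart from it. Of the 30 genes, 7 were called (23.3%), beside 7.25% of all genes tested. Of the 7, 2 were higher and 5 lower in replicate 2, beside 3.81% and 3.44% of all genes. The share of genes called rises with expression, from 0.841% in the lowest of 5 equal bins by level to 12.3% in the highest, and the 30 genes lie in the upper 3 bins, with 0 of 7, 5 of 11 and 2 of 12 called there beside 8.63%, 12.2% and 12.3% of all genes in those bins. On 1 side in all 3 groups were 15 of 30 (50%), beside 39.6% of all genes.

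Higher in replicate 2 were ATF3, with a log2 difference of 0.33 (SE 0.053, edgeR adjusted p = 2.39e-05), and ASNS, with 0.22 (SE 0.059, edgeR adjusted p = 0.0117). Both rose in all 3 groups. Lower in replicate 2 were STC2, with -0.34 (SE 0.051, edgeR adjusted p = 8.01e-06), DDIT4, with -0.28 (SE 0.058, edgeR adjusted p = 0.00103), and SESN2, with -0.19 (SE 0.052, edgeR adjusted p = 0.0129). PYCR1 fell by 0.15 (edgeR adjusted p = 0.026) and ATF4 itself by 0.15 (edgeR adjusted p = 0.0282). All 5 lay lower in replicate 2 in all 3 groups. In edgeR, then, listed targets were called on both sides. CHAC1 had a log2 difference of 0.39 (95% interval 0.10 to 0.67, edgeR adjusted p = 0.0928) and TRIB3 of -0.24 (95% interval -0.40 to -0.078, edgeR adjusted p = 0.0564), both short of the threshold. DESeq2 called 3 of the 30, ATF3, STC2 and DDIT4, beside 1.92% of all genes, and not ATF4, ASNS, SESN2 or PYCR1 (adjusted p = 0.0606, 0.167, 0.125 and 0.162). Without either library of sgZNF507 edgeR called 4, with ATF4, SESN2 and PYCR1 lost. Without either library of sgZNF146 it lost the same 3 and called 5 in all, and without either EV library it lost ASNS, gained TRIB3 among others and called 9.

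**Figure D4:**
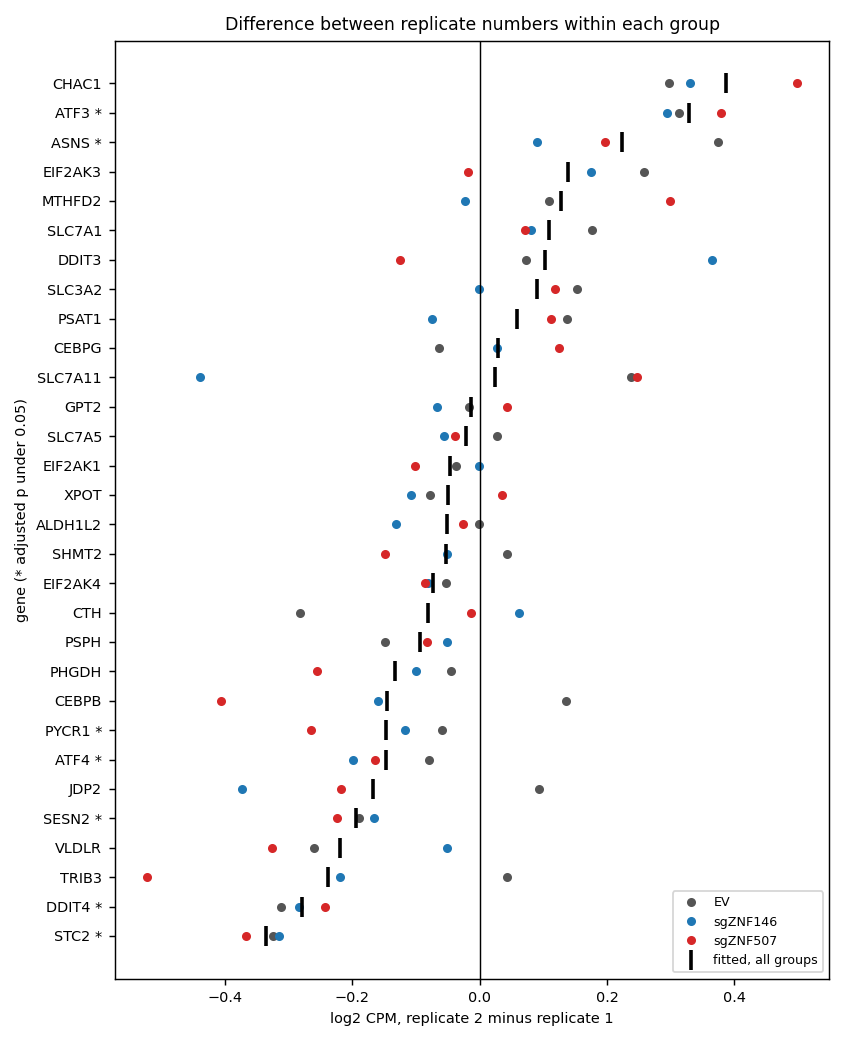
Log2 CPM of replicate 2 minus replicate 1 for each of the 30 tested genes, with 1 point per group and a black mark for the estimate over all groups. ATF3 and CHAC1 lie to the right in all 3 groups and STC2, DDIT4 and SESN2 to the left, and stars mark the 7 genes called.

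**Figure D5:**
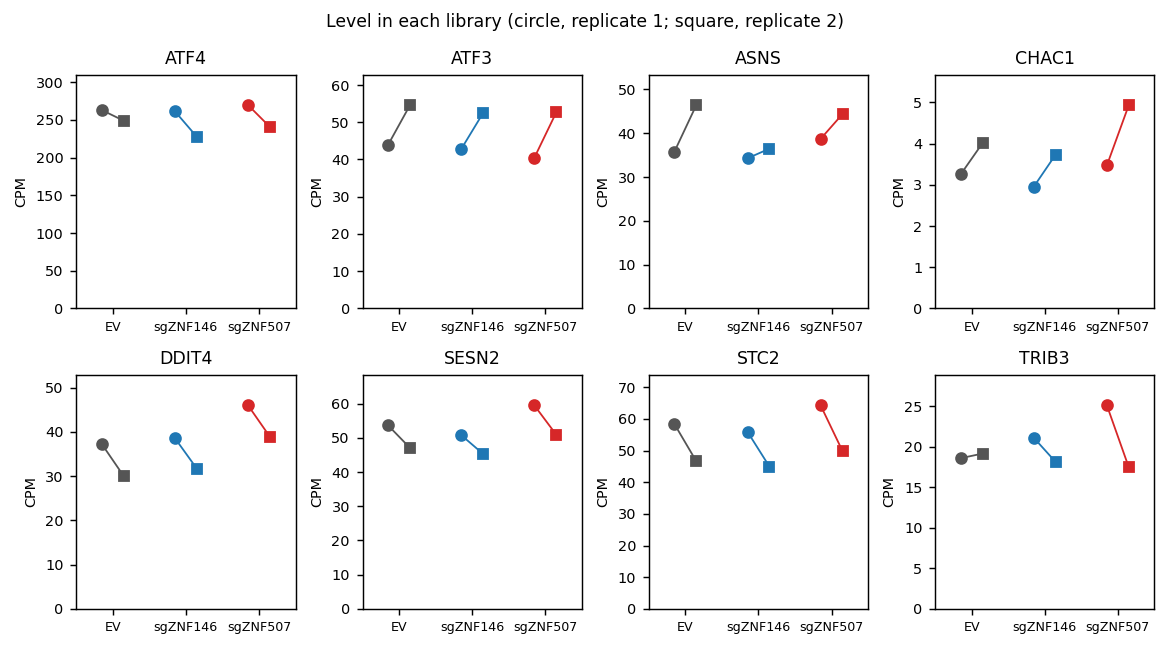
Level in CPM, on axes from 0, of 8 genes in each library, with circles for replicate 1, squares for replicate 2 and lines joining the 2 libraries of a group. ATF3, ASNS and CHAC1 slope upward in every group, ATF4, DDIT4, SESN2 and STC2 slope downward, and TRIB3 is nearly level in EV (18.6 and 19.2 CPM).

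The 4 genes that stood higher in replicate 2 in all 3 groups, ATF3, ASNS, CHAC1 and SLC7A1, are those whose promoter stretches were printed, and all hold the core. This was noticed after the values were seen. CHAC1 and SLC7A1 of these 4 were not called. Of the 7 tested genes of the set with the core, the median difference was 0.11, and of the 16 with a window and no core, -0.11. The 7 include the 4 genes in which the pattern was noticed, so this contrast reuses the same values and is a description only. JDP2, which holds the core, was the lowest of the 7 at -0.17. No window was held for EIF2AK1, PSPH, ALDH1L2 and PYCR1, which lay lower in replicate 2 in all 3 groups. Over all tested genes with a window the medians were -0.011 for 373 genes with the core and 0.0088 for 12785 without. Whether the core bears on the difference between replicate numbers was not tested. Among the further pathway genes described next, 15 with the core had a median of 0.031, with 0 called higher and 2, SLC38A1 and SLC1A3, called lower, and 39 without it had a median of 0.011.

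A further 70 genes of the pathway were read beside these, and 69 were tested. They comprised 20 cytosolic aminoacyl-tRNA synthetases, 14 genes listed under eIF2, eIF2B and the eIF2alpha phosphatase, and 9 genes of the mitochondrial stress relay. The rest were 10 other amino acid transporters and 17 other folate and amino acid enzymes. The list of 14 also held EIF2AK2, a further eIF2alpha kinase, which ranged over 86.8 to 102 CPM. In the comparisons of groups, edgeR and DESeq2 each called 0 of 69, beside the shares of all genes given above. At an unadjusted p under 0.05 edgeR had 3 (4.35%, beside 3.39% of all genes) in sgZNF507 against EV, 1 (1.45%, beside 2.43%) in sgZNF146 against EV and 6 (8.7%, beside 4.03%) between the disruptions. DESeq2 had 2 (2.9%, beside 1.28%), 1 (1.45%, beside 0.691%) and 1 (1.45%, beside 1.61%). With the replicate block edgeR called 1 of 69 (1.45%, beside 0.55% of all genes), PPP1CB, a catalytic subunit of the phosphatase that acts on eIF2alpha, which was lower in sgZNF507 than in EV, at a log2 fold change of -0.23 (edgeR adjusted p = 0.027). DESeq2 with the same block called 0 of 69 there. Between replicate numbers, edgeR called 4 of 69 higher and 2 lower in replicate 2, or 8.7% in all beside 7.25% of all genes, and DESeq2 called 2 (2.9%, beside 1.92%), both near the share over all genes. The mitochondrial stress factor ATF5 measured 32.8 and 47.6 CPM in EV, 34 and 41.7 CPM in sgZNF146 and 29.6 and 40.3 CPM in sgZNF507. It was the higher in replicate 2 of every group, with a log2 difference of 0.43 (edgeR adjusted p = 1.48e-06). Also higher were EIF2B3, a subunit of the eIF2 exchange factor, at 0.19 and FARSB, a subunit of phenylalanyl-tRNA synthetase, at 0.18. The glutamine transporter SLC38A1 was lower at -0.28 (edgeR adjusted p = 7.41e-06) and the glutamate transporter SLC1A3 at -0.19 (edgeR adjusted p = 0.0401).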

How the data were processed

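RNA of 6 HEK293 libraries was sequenced as strand-specific, ribosome-depleted paired-end reads. The authors clipped reads with the Fastx Toolkit, removed ribosomal reads with Bowtie, mapped the rest to hg19 with TopHat2 and Ensembl models, and counted with featureCounts, whose options are not given in the sources used here. The deposited values are raw counts per gene, not normalized or pooled. Samples were grouped by the labels. PCR duplicates were not removed by molecular identifiers, so count limits cover counting error only.

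Counts were tested with edgeR 4.0.16 in R 4.3.3 (glmQLFit and glmQLFTest, TMM, filterByExpr on the 3 groups, 22010 genes, all 6 libraries, Benjamini-Hochberg adjustment over all genes, threshold 0.05), with DESeq2 1.42.0 as an alternative. CPM were scaled to TMM-adjusted library sizes. Names came from GENCODE on GRCh37, which matched 96.1% of identifiers. The scripts were tested on simulated data. Figures were drawn with matplotlib.

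Deviations of libraries with the same number correlated between groups (r = 0.138 to 0.176 over genes), so a replicate block was fitted as an alternative; the pairing rests on the numbers in the labels. The genes, gene lists and tests were chosen with earlier results of these data known. Values in every library are given for ATF4, its kinases, ASNS, DDIT3, CHAC1, TRIB3, SESN2, genes past the threshold and the 3 largest differences per comparison. NEFL and PECAM1 were not analysed here. The values of 1 further pathway gene past the threshold are not reported here. The GC and length correction, the DDIT4 fits without 1 library and the canonical lengths were added after the data were seen.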

Additional observations from a re-analysis of the deposited data

Results flagged for a closer look

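DDIT4 differed between the disruptions when the replicate number was a block, by a test of the difference itself. The log2 fold change of sgZNF507 against sgZNF146 was 0.27 (95% interval 0.13 to 0.42, edgeR adjusted p = 0.0397). Both sgZNF507 libraries lay above both sgZNF146 libraries, but narrowly, at 38.9 CPM in sgZNF507 replicate 2 beside 38.6 CPM in sgZNF146 replicate 1. Such an order without overlap held for 32.1% of all genes. As given above, this call ended when either library of sgZNF146 or of sgZNF507 was left out. Without the block the estimate was 0.27 (edgeR adjusted p = 1), and DESeq2 with the block gave an adjusted p of 0.65. Groups of 2 libraries were too small for the check of single samples that stand apart.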

How the results depend on the processing

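Another scaling, count filter, tool (DESeq2), set of libraries, replicate block or correction for GC content and length (added after the data were seen) left the 3 group comparisons at 0 genes called, except that the replicate block, alone and with the GC and length correction, called 1 (DDIT4) in sgZNF507 against EV and 1 in sgZNF507 against sgZNF146. With that correction its log2 fold changes were 0.32 and 0.26. The replicate block called 121 genes in all in sgZNF507 against EV, 33 in sgZNF146 against EV and 196 between the disruptions, beside 40, 0 and 38 without it, and changed no other call among the 33 genes. Between replicate numbers, DESeq2 called 3 of the 30, a fit without group terms 2, and leaving out 1 library 4 to 9, while no count filter gave 8, RLE, upper quartile and a minimum of 10 counts in every library gave 9 each, and the GC and length correction gave 10. For all genes tested DESeq2 called 423 beside 1596. Leaving out 1 library, the medians over the 30 genes ran over -0.041 to 0.039 in sgZNF507 against EV, -0.067 to -0.0045 in sgZNF146 against EV, 0.017 to 0.10 between the disruptions and -0.066 to -0.037 between replicate numbers.

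Signs of small, uncalled differences turned in places, and the cause was not tested. In sgZNF507 against EV, ATF4 moved to 0.00037 with RLE size factors, 0.0018 with upper quartile scaling, 0.0014 without a filter and 0.00039 with DESeq2. In sgZNF146 against EV, EIF2AK4 moved to 1.6e-05, 0.0024 and 2.5e-05 with RLE, upper quartile and DESeq2. EIF2AK3 between the disruptions moved to -0.0013 with the replicate block, and SLC7A11 between replicate numbers to -0.00019 with the GC and length correction. Leaving out 1 library at a time, log2 fold changes that turned sign ran over, in sgZNF507 against EV, ATF4 -0.091 to 0.087, EIF2AK1 -0.083 to 0.032, EIF2AK3 -0.080 to 0.17, EIF2AK4 -0.070 to 0.030, ASNS -0.16 to 0.21, CHAC1 -0.058 to 0.44, TRIB3 -0.11 to 0.42, ATF3 -0.28 to 0.092, PYCR1 -0.026 to 0.25, STC2 -0.075 to 0.31 and SLC7A11 -0.18 to 0.066. In sgZNF146 against EV they ran over ATF4 -0.17 to 0.029, EIF2AK1 -0.017 to 0.025, EIF2AK3 -0.086 to 0.17, EIF2AK4 -0.043 to 0.037, DDIT3 -0.35 to 0.025, CHAC1 -0.30 to 0.036, TRIB3 -0.060 to 0.16, SESN2 -0.16 to 0.030, ATF3 -0.21 to 0.11, PYCR1 -0.10 to 0.014, DDIT4 -0.089 to 0.23, STC2 -0.22 to 0.11, VLDLR -0.090 to 0.18 and SLC7A11 -0.39 to 0.053. Between the disruptions they ran over ATF4 -0.034 to 0.17, EIF2AK1 -0.090 to 0.025, EIF2AK3 -0.080 to 0.093, EIF2AK4 -0.069 to 0.032, DDIT3 -0.12 to 0.25, TRIB3 -0.17 to 0.37, ATF3 -0.22 to 0.14, STC2 -0.019 to 0.36, ALDH1L2 -0.0054 to 0.13 and SLC7A11 -0.11 to 0.33, and between replicate numbers over DDIT3 -0.027 to 0.22 and SLC7A11 -0.10 to 0.24. With 2 libraries a group, an uncalled difference is not shown to be absent, and leaving 1 out assumes that the lone library varies like the other groups.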
